A study of Mus musculus with 16 samples.

Results

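Chromatin contacts at 7 mouse loci were compared between embryonic stem (ES) cells grown in serum and ES cells grown in 2i, with 2 chromosome conformation capture carbon copy (5C) libraries in each medium. The contacts followed here were pairs of a forward and a reverse 5C primer that both lay in the same locus. A count was seen in at least 1 of the 4 ES libraries for 96071 such primer pairs, of 96280 over the 6 untreated 5C libraries of the series, and a single ES library held between 90540 and 93825 of them. Both groups were V6.5 ES cells, a male line of strain background 129SvJae x C57BL/6, fixed with formaldehyde. The 2i cells were kept in serum-free medium with LIF, CHIR99021 and PD0325901, and the serum cells in serum-containing medium with LIF. In both media the cells had first been expanded on inactivated MEF feeders and then moved to gelatin to remove the feeders. The line is the same in both groups. Nothing in the labels tells whether both libraries of a medium were grown as separate cultures, so each p-value covers the spread among these libraries and no more, and that spread may be technical. Counts of ligated primers hold no expression values, so the identity of the cells was not checked.

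LIF keeps mouse ES cells in self-renewal, CHIR99021 inhibits the kinase GSK3 and PD0325901 inhibits MEK. ES cells in 2i are known for a more uniform, naive state, and ES cells in serum for a mixed state in which some cells carry lower levels of naive pluripotency factors. The loci were built around Sox2, Oct4, Nanog and Klf4, which encode pluripotency transcription factors, around Nestin, which encodes an intermediate filament of neural progenitors, and around Olig1 and Olig2, which encode transcription factors of the oligodendrocyte lineage. A gene desert served the study as a negative control locus. CTCF is a zinc finger protein that, with cohesin, holds many chromatin loops and domain borders. In 5C, DNA is cut with HindIII and ligated, and a ligation between 2 fragments is read out by a primer on each, so a count measures how often 2 fragments were joined.

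Total counts were 11784821 and 14201950 in 2i and 26533530 and 25791222 in serum, so the serum libraries were deeper. Counts between loci made up 8.14% and 16.2% of the total in 2i and 17.8% and 19.2% in serum, and the first 2i library stood apart from the other 3. Of the primer pairs, 91332 lay inside the regions the authors had binned and were used, with 10603707 and 11635494 counts in 2i and 21352901 and 20457874 in serum. A single primer pair of the Oct4 locus, with fragments 88.8 kb apart, held 3.60% and 3.04% of all counts in 2i and 5.49% and 6.75% in serum. Intervals and tests cover counting error and the spread between libraries only, because PCR reads without molecular identifiers are not independent molecules.

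Short contacts took a smaller part of the serum libraries. Contacts under 50 kb held 55.9% and 52.8% of within-locus counts in 2i and 49.3% and 44.2% in serum, without overlap between the media. Contacts of 50 to 100 kb went the other way, at 14.2% and 14.3% in 2i and 17.5% and 20.0% in serum, and the dominant primer pair lies in that class. Contacts of 100 to 200 kb held 11.2% and 11.9% in 2i and 12.04% and 13.12% in serum. Contacts of 400 to 800 kb held 6.04% and 7.06% against 7.16% and 7.85%, and those of 800 kb and more 2.47% and 2.81% against 3.08% and 3.05%, each without overlap but by small margins. Contacts of 200 to 400 kb overlapped between the media, at 10.2% and 11.2% against 10.9% and 11.9%. An exact permutation test of 2 against 2 libraries cannot give a p below 0.33, so no p is given for these shares. Split by locus, the estimate for contacts under 50 kb was below 0 in all 7 loci, and the fall passed edgeR's quasi-likelihood test in 5 of them, where 36.8% of the 38 classes of locus and distance passed in either direction, 8 upward (21.1%) and 6 downward (15.8%). The largest fall was in the gene desert, with a log2 fold change of -0.59 (SE 0.12, edgeR adjusted p = 0.000226). Its contacts under 50 kb held 2.07% and 1.83% of within-locus counts in 2i and 1.42% and 1.16% in serum.

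At longer distances the loci went different ways. The Sox2 locus rose in each of its 4 classes from 100 kb upward, with log2 fold changes of 0.35 (SE 0.13), 0.54 (SE 0.13), 0.52 (SE 0.14) and 0.60 (SE 0.23) and edgeR adjusted p-values of 0.0398, 0.00185, 0.00694 and 0.0412. Its contacts of 200 to 400 kb held 1.25% and 1.54% of within-locus counts in 2i and 1.92% and 2.15% in serum. The Klf4 locus rose at 400 to 800 kb (log2 0.57, SE 0.18, edgeR adjusted p = 0.0198), and the Olig1-Olig2 locus at 100 to 200 kb (log2 0.36) and 200 to 400 kb (log2 0.31). The Nestin locus had estimates below 0 in all 6 of its classes, and fell past the threshold under 50 kb (log2 -0.32, SE 0.10) and at 200 to 400 kb (log2 -0.34, SE 0.12). None of the 5 Nanog classes rose, and its one call was the fall under 50 kb (log2 -0.25, SE 0.10).

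The Oct4 locus rose at 50 to 100 kb (log2 0.61, SE 0.11, edgeR adjusted p = 6.22e-05), the class that holds the dominant primer pair. Without that primer pair the change was 0.14 with an edgeR adjusted p of 0.26. The falls under 50 kb at Nanog (edgeR adjusted p = 0.0877) and Sox2 (edgeR adjusted p = 0.0542) then no longer passed, nor did the Nestin fall at 200 to 400 kb (edgeR adjusted p = 0.0736). The falls under 50 kb at Klf4, Nanog and Sox2 also ended with the 4 ES libraries alone and with TMM factors, and that at Nestin ended with TMM factors. The split of the calls into rises and falls depends on the scaling: DESeq2, with its own size factors, gave 5 rises and 15 falls and moved the median of the 38 classes from 0.12 to -0.04 on the log2 scale, while the total of the same locus as library size gave 13 rises and 5 falls. The results also rest on few libraries: without replicate 1 of the 2i cells, and likewise without replicate 2 of the serum cells, 2 of the 14 calls were left, those of Oct4 at 50 to 100 kb and of the gene desert under 50 kb. Measured against the total of the same locus, the gene desert fall under 50 kb was -0.10 (edgeR adjusted p = 0.52), the Nanog fall was -0.06 (edgeR adjusted p = 0.66) and neither Nestin fall passed. The share of counts between loci moved in the same direction as the loss of short contacts, and its part in the result was not tested.

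For single contacts, primer pairs were collected into pairs of 16 kb windows, and each library's own fall of counts with distance in each locus was removed, so a change is relative to the locus and the distance. The adjusted level of a library is called its distance-adjusted count. Of 15601 window pairs tested, 3300 changed, which is 21.2%. This count rests on all 4 libraries: it was 1256 without replicate 1 of the 2i cells, and 1289 and 851 without replicate 1 and 2 of the serum cells. Contacts were higher in serum at 1519 of them (9.74%) and lower at 1781 (11.4%). In 3299 of the 3300 changed pairs both serum libraries lay on the same side of both 2i libraries, which was true of 63.5% of all tested pairs. Between 20.3% and 22.4% of window pairs changed in the 6 gene loci, and 15.1% in the gene desert, where 3 pairs rose and 8 fell of 73. By distance, 38.0% of the pairs of different windows under 50 kb apart changed, 28.6% of those at 100 to 200 kb and 10.3% of those at 800 kb or more. Pairs with both fragments in the same window were more often lower, with 26 up and 114 down of 376. The removal of the locus trend sets the balance within a locus. Under plain scaling the median of the window pairs moved to 0.37 in Sox2, 0.24 in Klf4, -0.21 in Nanog, -0.44 in Nestin and -0.11 in Oct4 on the log2 scale, and the split of rises and falls became 500 against 94 in Sox2 (190 against 233 with the trend removed), 299 against 158 in Klf4 (168 against 237), 52 against 174 in Nanog (104 against 117) and 49 against 566 in Nestin (202 against 230).

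Among the named window pairs the largest loss in serum was in the Oct4 locus, between windows of chromosome 17 starting at 35982392 and 36318392, 336 kb apart. Positions are 1-based in the mouse build mm9. The raw counts were 305 and 278 in 2i and 39 and 44 in serum, and the distance-adjusted counts were 327 and 253 against 22 and 25. Both serum libraries lay far below both 2i libraries, at a fold of 12.3 (log2 -3.62, SE 0.32, edgeR adjusted p = 9.29e-06). All 3 of its primer pairs were lower in both serum libraries after scaling, but they share the single fragment with counts in the window at 36318392. Both windows held CTCF peaks that were in the 2i and in the serum peak list. The authors' deposited interaction scores, averaged over the window pair, were 69.7 and 73.3 in 2i and 0.14 and 0.20 in serum. Within this window pair, 6 pairs of 4 kb bins are in their class of 2i cells and neural progenitor cells.

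The second loss of the Oct4 locus joined the same window at 35982392 to one at 34766392, 1216 kb away, from 113 and 73 distance-adjusted counts to 10 and 14 (log2 -2.98, SE 0.49, edgeR adjusted p = 0.000845), where 4 of 8 primer pairs were lower and 4 overlapped.

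The largest gain of the Oct4 locus joined the windows starting at 35662392 and 36286392, 624 kb apart. Distance-adjusted counts were 1092 and 1290 in 2i and 4861 and 5746 in serum, with no overlap. The fold was 4.45 (log2 2.16, SE 0.19, edgeR adjusted p = 1.05e-05), and 6 of its 10 primer pairs were higher in both serum libraries, with none lower. The primer pair with most counts gave 288 and 400 reads in 2i and 3321 and 4016 in serum. The authors' scores were 2.87 and 7.37 in 2i and 25.1 in each serum library. Within this window pair, 2 pairs of 4 kb bins are in their serum only class. One end of this contact also gained with the left part of the locus, at a window starting 34558392 (1104 kb away, log2 2.14, SE 0.46), from 26 and 24 distance-adjusted counts to 89 and 133; that call ended without replicate 2 of the serum cells (edgeR adjusted p = 0.066).

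At the Klf4 locus both named losses shared the window of chromosome 4 starting at 55523979. With the window at 55363979, 160 kb away, distance-adjusted counts were 583 and 565 in 2i and 123 and 125 in serum, a log2 fold change of -2.21 (SE 0.22, edgeR adjusted p = 2.02e-05). With the window at 55395979, 128 kb away, they were 1351 and 1018 against 283 and 270 (log2 -2.10, SE 0.23). In each case all 3 primer pairs were lower in both serum libraries, and all 3 windows held CTCF peaks of both lists. The scores of the second contact were 42.2 and 49.8 in 2i and 5.44 and 5.88 in serum. The Klf4 gains were weaker in support: 75 and 228 distance-adjusted counts rose to 407 and 524 between windows at 55219979 and 55635979 (log2 1.59, SE 0.42, edgeR adjusted p = 0.0151), and the call ended with DESeq2 and without any of 3 ES libraries. The other gain, between windows at 55027979 and 55843979, went from 29 and 19 to 50 and 80 (log2 1.46, SE 0.48, edgeR adjusted p = 0.0424) and ended without any 1 of the 4 ES libraries (edgeR adjusted p up to 0.284).

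At the Sox2 locus the window of chromosome 3 starting at 34908880 lost contacts in both named falls. With the window at 34812880, 96 kb away, distance-adjusted counts were 128 and 165 in 2i and 24 and 49 in serum (log2 -2.01, SE 0.38, edgeR adjusted p = 0.00231). With the window at 34252880, 656 kb away, they were 111 and 123 against 30 and 37 (log2 -1.81, SE 0.42, edgeR adjusted p = 0.00741), a call that ended without any of 3 ES libraries (edgeR adjusted p up to 0.069). The gain with the largest fold joined windows at 34300880 and 34764880, 464 kb apart, where 109 and 113 became 353 and 341 (log2 1.65, SE 0.25, edgeR adjusted p = 0.000524). No window of these 3 Sox2 contacts held a CTCF peak of either list. The authors' scores for the gain were 1.78 and 4.55 in 2i and 35.4 and 34.8 in serum. The other gain, between windows at 34236880 and 34460880, went from 25 and 39 to 91 and 94 (log2 1.51, SE 0.42, edgeR adjusted p = 0.0208) and ended without any of 3 ES libraries (edgeR adjusted p up to 0.16).

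In the Nestin locus the contact between windows at 88085088 and 88277088, 192 kb apart, went from 3750 and 2323 distance-adjusted counts in 2i to 653 and 735 in serum (log2 -2.13, SE 0.21, edgeR adjusted p = 2.37e-05), and 4 of its 5 primer pairs were lower in both serum libraries. Its gain over the shortest distance was between windows at 87877088 and 87925088, 48 kb apart, from 223 and 343 to 980 and 717 (log2 1.58, SE 0.25, edgeR adjusted p = 0.000658). All 4 primer pairs were higher in both serum libraries, but they share the single fragment with counts in the window at 87925088. The authors' scores for this gain overlapped, at 9.4 and 10.5 in 2i and 9.86 and 11.95 in serum. Those for the loss between 88085088 and 88277088 were 14.9 and 15.1 against 2.26 and 3.91. The largest Nestin gain joined windows at 87509088 and 88197088, 688 kb apart, from 45 and 73 to 161 and 349 (log2 2.10, SE 0.39, edgeR adjusted p = 0.00199), and it ended without replicate 2 of the serum cells (edgeR adjusted p = 0.0632). The second loss was between windows at 87637088 and 88277088. Its authors' scores did not fall, at 0.87 and 1.98 in 2i and 1.675 and 5.03 in serum. Its distance-adjusted counts went from 121 and 62 to 15 and 30 (log2 -2.003, SE 0.52, edgeR adjusted p = 0.0144). It ended without replicate 1 of the 2i cells and without replicate 1 of the serum cells (edgeR adjusted p up to 0.204), and 1 of its 4 primer pairs went against it.

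In the Olig1-Olig2 locus on chromosome 16 both named losses ended at the window starting 90726613. With the window at 91350613 the distance-adjusted counts were 304 and 238 in 2i and 65 and 66 in serum (log2 -2.04, SE 0.32, edgeR adjusted p = 0.000657). The other loss, with the window at 91318613, went from 136 and 166 to 46 and 27 (log2 -2.03, SE 0.37). The largest gain there joined windows at 90662613 and 91622613, 960 kb apart, from 48 and 67 to 166 and 268 (log2 1.91, SE 0.34, edgeR adjusted p = 0.00138), but 2 of its 8 primer pairs were higher and 3 were lower, so its primer pairs went both ways. Another gain joined windows at 90790613 and 91382613, 592 kb apart and with shared CTCF peaks in both, from 96 and 165 to 341 and 423 (log2 1.54, SE 0.28, edgeR adjusted p = 0.00157), and 7 of its 10 primer pairs were higher with none lower.

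Changes at the Nanog locus on chromosome 6 were less firm. For its largest fall, between windows at 122381360 and 122589360, the authors' scores were 3.94 and 0.96 in 2i and 0.79 and 0.87 in serum. The authors place 4 pairs of 4 kb bins there in their background class. At this window pair the locus went from 291 and 217 distance-adjusted counts to 71 and 80 (log2 -1.75, SE 0.33, edgeR adjusted p = 0.00198). Its other 3 named changes each ended when 1 of several ES libraries was left out, with edgeR adjusted p-values up to 0.24. In the gene desert on chromosome 5 the named changes were small, with log2 fold changes of 0.68 (SE 0.22), -0.74 (SE 0.20) and -1.06 (SE 0.23). The authors' scores of the -0.74 change went against it, at 3.44 and 2.80 in 2i and 6.56 and 3.47 in serum. The scores of the other gene desert changes moved with them. Each of these 3 calls ended without at least 1 ES library. Over all 27 named window pairs, 102 of 159 primer pairs moved the same way as their window pair with no overlap between media, 6 moved against it and 51 overlapped. In 9 window pairs every primer pair moved the same way. The window pairs were chosen for large changes in these same counts and are sums of these primer pairs, many of which share a fragment. The agreement is therefore a description only, and the same count over all primer pairs is not given here.

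Whole windows changed as well as single contacts. Summed over partners at least 3 windows away, 195 of 429 windows changed (45.5%), 86 of them upward (20.0%) and 109 downward (25.4%). Without replicate 1 and 2 of the serum cells 103 and 74 changed. The largest fall was again at the Oct4 window starting 36318392, with 10454 and 9055 raw counts in 2i and 4282 and 5300 in serum, and a log2 fold change of -2.03 (SE 0.17, edgeR adjusted p = 0.000305). It lost contacts past the threshold with 40 of 76 partners and gained none. The window rests on 1 fragment. The largest rise was at the Oct4 window starting 34558392, from 21103 and 21892 distance-adjusted counts to 39939 and 41292 (log2 0.92, SE 0.071, edgeR adjusted p = 0.000276), where all 3 fragments were higher and 43 of 106 partners gained.

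In the Klf4 locus the window at 55363979, an end of a contact described above, fell by 1.24 on the log2 scale (SE 0.088, edgeR adjusted p = 0.000207), from 22248 and 23799 distance-adjusted counts to 10210 and 9284. Both of its fragments were lower, and its contacts fell with 44 of 56 partners. Chosen after their values were seen, the Klf4 windows at 55475979 and 55523979 had log2 fold changes of -1.08 (SE 0.11) and -1.23 (SE 0.080), with 3 of 3 and 2 of 3 fragments lower. The strongest fall of the Nestin locus was at 88069088 (log2 -1.33, SE 0.18) and that of the Sox2 locus at 35020880 (log2 -0.83, SE 0.12), and each of these windows held 1 fragment. The strongest rises outside Oct4 were 0.82 at Nanog (122397360, SE 0.17), 0.64 at Nestin (87461088, SE 0.17), 0.61 at Klf4 (55651979, SE 0.11), 0.61 at Olig1-Olig2 (90790613, SE 0.10) and 0.56 at Sox2 (34764880, SE 0.088). The Nestin rise ended in 5 of 15 alternatives, among them plain scaling, without replicate 1 of the 2i cells and without replicate 2 of the serum cells (edgeR adjusted p up to 0.114). The Nanog rise ended without replicate 2 of the serum cells (edgeR adjusted p = 0.0544).

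Single contacts often changed with their windows. Of 1515 pairs at least 3 windows apart that fell, 93.6% had an end in a window whose total fell, against 43.1% of all such pairs tested, and of 1338 that rose, 80.2% had an end in a window whose total rose, against 39.4%. Both counts come from the same reads and are given as a description. Of the 195 changed windows, 24 held a single fragment, and of the other 171 every fragment moved the same way in 45, while 63 had at least 1 fragment that moved against the window. The spread of the window changes was larger where fewer fragments were summed, with an SD of 0.52 on the log2 scale over 52 windows with 1 fragment and 0.31 over 111 windows with 5 or more.

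Contacts that cross a position were summed between the 6 windows before and the 6 windows after each window border, so neighbouring borders share most of their contacts. Crossing contacts changed at 204 of 376 borders (54.3%), rising at 97 (25.8%) and falling at 107 (28.5%). With either 1 of the serum libraries left out, 135 borders changed. The changes came in long stretches. In the Klf4 locus 17 consecutive borders from 55283979 to 55539979 fell, with a mean log2 fold change of -0.49, and 12 consecutive borders from 55603979 to 55779979 rose, with a mean of 0.46. At the border with the largest fall, 55459979, the distance-adjusted counts were 56313 and 51782 in 2i and 32669 and 32287 in serum (log2 -0.73, SE 0.066, edgeR adjusted p = 0.000238). At the border with the largest rise, 55651979, they were 14819 and 16350 against 24280 and 24643 (log2 0.65, SE 0.067, edgeR adjusted p = 0.000306).

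The Sox2 locus had the same order along the map. Crossing contacts fell at 10 consecutive borders from 34508880 to 34652880 (mean log2 -0.63), and farther right they rose at 7 from 34748880, chosen after the values were seen. At the lowest border, 34572880, distance-adjusted counts were 83171 and 81651 in 2i and 46797 and 43570 in serum (log2 -0.87, SE 0.074, edgeR adjusted p = 0.00021). Here the window totals fell in 5 neighbouring windows from 34540880 to 34620879, between -0.72 and -0.39, and the border does not rest on a single fragment.

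The Oct4 locus held the extremes of both directions. Crossing contacts rose most at 36254392, from 28413 and 28191 to 54196 and 55199 (log2 0.95, SE 0.057, edgeR adjusted p = 6.57e-05), within 10 rising borders that began at 36158392. They fell most at 35646392, from 38764 and 28889 to 15876 and 15665 (log2 -1.10, SE 0.13, edgeR adjusted p = 0.000492), beside windows with 7 CTCF peaks of both lists. Just left of the rising stretch, 11 consecutive borders from 35966392 to 36126392 fell (mean log2 -0.50). In the Nestin locus 12 borders from 87477088 to 87653088 rose (mean log2 0.37), in the Olig1-Olig2 locus 10 borders from 91398613 to 91542613 rose (mean log2 0.31), and in the Nanog locus 9 borders from 122621360 to 122749360 fell (mean log2 -0.43). By locus, Nanog had 4 borders up and 15 down of 35, and Olig1-Olig2 had 20 up and 6 down of 61. The gene desert allowed 1 border, which did not pass. All 12 borders with the largest rise or fall of their locus kept their direction in each alternative run for them, leaving out any 1 library included. They passed the test in each of these that kept the 4 ES libraries. Having been chosen for the size of their change in these same libraries, they were likely to keep their direction.

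CTCF peaks of the 2 media largely coincided inside the loci. The deposited lists held 400 peaks for 2i and 364 for serum, and 340 of the 2i peaks overlapped a serum peak, 60 of the 2i peaks did not, and 30 of the serum peaks overlapped no 2i peak. The 340 counts peaks of the 2i list, since a serum peak can overlap more than 1 of them. Each list comes from 1 ChIP library, so a peak in 1 list only is not shown to differ between media. Window pairs with shared peaks in both windows fell more often than they rose: of 2904, 220 rose (7.58%) and 479 fell (16.5%), against 9.74% and 11.4% of all window pairs, and their median log2 fold change was -0.11. Window pairs with no peak in either window had the opposite balance, with 404 of 3224 up (12.5%) and 255 down (7.91%) and a median of 0.08. Pairs touching a peak of the 2i list only had 273 up and 311 down of 2822. Pairs touching a peak of the serum list only had 157 up and 155 down of 1460. Pairs touching peaks of both these kinds were counted apart, with 44 up (6.42%) and 90 down (13.1%) of 685. Of all pairs 9.74% were up and 11.4% down. Without replicate 2 of the serum cells the shared-peak pairs had 51 up and 182 down, and the pairs with no peak 79 up and 63 down. Without replicate 1 of the 2i cells these counts were 70 and 231, and 124 and 113. Under plain scaling they were 168 and 570, and 633 and 224.

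At the Klf4 locus the balance was the most uneven of the 6 gene loci. Of its 134 window pairs with shared peaks in both windows, 65 fell and 1 rose, with a median log2 fold change of -0.58, and of its 893 pairs with no peak 29 fell and 117 rose, with a median of 0.15. All 16 Klf4 windows with shared peaks took part in at least 1 falling pair with shared peaks in both windows. This was common elsewhere too, at 25 of 26 such windows in Nestin, 54 of 61 in Oct4 and 11 of 13 in Sox2. It was 17 of 23 in Olig1-Olig2 and 16 of 23 in Nanog. Without the 3 Klf4 windows whose totals fell most, chosen after their values were seen, 26 of the remaining 90 shared-peak pairs fell and 1 rose, and the median was -0.34. With any 1 ES library left out, between 25 and 55 of the 134 pairs fell and none rose. Whether Klf4 differs from the other loci was not tested. The median of shared-peak pairs was -0.23 in Sox2, -0.13 in Nestin, -0.12 in Olig1-Olig2, -0.11 in Nanog and -0.07 in Oct4, while pairs without a peak had 0.15 in Oct4, 0.05 in Sox2, -0.001 in Olig1-Olig2, -0.006 in Nestin and -0.08 in Nanog. With a trend on the number of primer pairs removed as well, the order of the medians reversed at Olig1-Olig2 (-0.04 with shared peaks, -0.07 with no peak) and at Nanog (-0.10 and -0.17), and it held at Klf4 (-0.55 and 0.13), Sox2 (-0.24 and 0.07), Nestin (-0.11 and 0.04) and Oct4 (-0.04 and 0.20).

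For crossing contacts the shares over all 376 borders were 25.8% up and 28.5% down, and most of these borders lay beside a shared peak. Borders beside a shared peak rose in 54 and fell in 85 of 267 cases, and borders with no peak beside them rose in 35 and fell in 18 of 86. In the Sox2 locus 9 of 22 borders beside a shared peak fell and 1 rose, against 2 falling and 9 rising of 26 without a peak, and in the Klf4 locus 13 of 23 fell and 2 rose against 10 falling and 13 rising of 27. In Olig1-Olig2 the borders beside shared peaks were more often higher, with 11 up and 4 down of 36. In Oct4, where most borders had a shared peak beside them, 30 rose and 29 fell of 108.

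The number of primer pairs summed in a window pair moved with the direction of change. Window pairs with 1 primer pair rose in 103 and fell in 203 of 1668 cases, and those with 10 or more rose in 541 and fell in 125 of 2819. Shared-peak pairs held a median of 3 primer pairs and pairs with no peak a median of 6. With a second trend removed, on the number of primer pairs, the counts for pairs with 10 or more became 236 up and 248 down. Shared-peak pairs then had 246 up and 433 down with a median of -0.09, and pairs with no peak 321 up and 210 down with a median of 0.06. This alternative was chosen after seeing the data.

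The authors sorted looping contacts into classes from interaction scores of these same libraries, so the direction of a class is not independent evidence and no test of it is given. Their classes belong to pairs of 4 kb bins. Here a window pair took the most frequent class among its classified bin pairs, which can be few, and no class at a tie. Of 106 window pairs of the 2i only class, 59 fell and 3 rose, where 11.4% of all window pairs fell and 9.74% rose, and of 111 pairs of the class shared by 2i cells and neural progenitors 50 fell and 1 rose. Of 107 pairs of the serum only class 43 rose and 1 fell. The 3 rises in the 2i only class were all in the Nanog locus, among its 5 pairs of that class. In the 2i only class the median distance-adjusted level, on the log2 scale against the mean of the 4 ES libraries, was 0.63 and 0.34 in 2i and -0.43 and -0.48 in serum. In the serum only class it was -0.28 and -0.25 in 2i and 0.33 and 0.29 in serum.

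Losses of the 2i only class were most frequent at Klf4, with 20 of 28 pairs, then at Oct4 with 18 of 28 and at Sox2 with 15 of 24. Gains of the serum only class were 17 of 43 at Oct4, 10 of 25 at Olig1-Olig2, 8 of 23 at Nestin and 7 of 8 at Klf4, and Sox2 had a single pair of that class, which did not pass. Contacts that the authors class as looped in both ES states had 22 falls (31.9%) and 3 rises (4.35%) among 69 pairs, with a median of -0.33, and 12 of the 22 falls were among the 15 such pairs of the Sox2 locus. Their median level was 0.20 and 0.01 in 2i and -0.09 and -0.17 in serum, so the second 2i library lay nearer to serum than to the first. With the trend on primer pairs removed they had 6 rises and 18 falls and a median of -0.23. The 272 constitutive pairs had 42 up (15.4%) and 36 down (13.2%) and a median of 0.01.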

How the data were processed

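The authors deposited raw read counts per pair of 5C primers, with Bowtie and mm9 named without versions in the submitters' processing notes; read filters were not given in the sources used here. Templates were HindIII 3C libraries, and both ES groups and the neural progenitor group reuse reads of earlier samples, per the labels. Interaction scores per pair of 4 kb bins and looping classes are deposited values of the authors, on a scale that no source used here gives. CTCF peaks were called with MACS2 per the submitters' processing notes, and the deposited lists give a fold enrichment (ratio) and a −log10 q per peak. All deposited peaks were used, and the q served as a filter only in an alternative with a −log10 q of at least 20. In that alternative 1 of the medians checked moved and 4 stayed the same. A further 49 per-sample columns were not used.

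Same-orientation pairs (0.22% to 0.79% of ES counts), pairs between loci and pairs outside the bins were left out. Counts were summed over pairs of 16 kb windows by fragment midpoint, over windows, over borders (6 windows on each side) and over classes of locus and distance. edgeR 4.0.16 in R 4.3.3 (quasi-likelihood test, filterByExpr, TMM factors) was fitted to 6 libraries, the 4 ES libraries and 2 of neural progenitor cells that share the spread only, with group as the only term. The offset was a trend on distance, fitted per library and locus by loess to log counts with 0.5 added (span 0.5), except for distance classes, where the total of within-locus counts was the library size. The threshold was a Benjamini-Hochberg adjusted p below 0.05 over all features of a fit, and rose and fell are used for what passed it. The SE is the log2 fold change over the square root of F. Common biological variation was 0.20 for window pairs. Libraries of a group were not duplicates (chi-square per degree of freedom 20.8 in 2i and 29.9 in serum).

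Named window pairs were, per locus and direction, the 2 with the largest change that passed, lay at least 3 windows apart and had non-overlapping media, at least 3 primer pairs, none with more than 60% of ES counts, and at least 100 ES counts. Named windows and borders were the largest rise and fall per locus. Members and lists were chosen with earlier results of these data known. A primer pair or fragment counted as higher or lower when both serum libraries lay beyond both 2i libraries after scaling. CTCF peaks overlapping by at least 1 bp were shared. Windows were not matched to genes, for which an mm9 annotation would be needed.

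Tested on simulated data with 15601 window pairs, the fit recovered 36 of 95 pairs changed by a log2 of 1 and 100 of 105 changed by 2, with 2.86% of calls false. For 429 window totals it recovered 73 of 80 changed by 0.5, with 5.19% of calls false. For 376 borders it recovered 70 of 70, and for 38 distance classes 8 of 8 changed by 0.8, with 11.1% of the class calls false. The simulated libraries shared 1 profile of means and 1 spread, without a distance trend of their own. Features were drawn independently, also neighbouring borders, and far fewer window pairs were changed than the data called. These rates therefore do not carry over to the real libraries. Alternatives were DESeq2 1.42.0, other scalings, filters and window sizes, and leaving out libraries.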

Additional observations from a re-analysis of the deposited data

Results flagged for a closer look

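Counts outside the main measurement were above the level that a count of 0 allows in every ES library. Primer pairs of 1 locus that lay outside the binned regions held 1.90% and 2.01% of the forward-reverse counts in 2i and 1.65% and 1.56% in serum. Counts between loci were 8.14% and 16.2% of the total in 2i and 17.8% and 19.2% in serum. The difference between media in these shares was not tested.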

How the results depend on the processing

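All 27 named window pairs, 13 windows and 12 borders kept their direction in each alternative run for them. They were not followed with other window sizes, as single primer pairs or with other border widths. They were chosen for large changes in these same libraries, and the window pairs also for non-overlapping media, so the choice itself favours a kept direction. Window pairs past the threshold numbered 6267 of 40197 with windows of 8 kb, 1308 of 4395 with windows of 32 kb and 7989 of 76201 as single primer pairs, since the number of features differs. Leaving out 1 library gave 851 to 3909 window pairs (1256 without replicate 1 in 2i, 1289 and 851 without replicate 1 or 2 in serum), 74 to 217 windows (103 and 74 without replicate 1 or 2 in serum), 135 to 220 borders (135 with either 1 of the serum libraries left out) and 2 to 11 distance classes. A group then rests on 1 library, assumed to vary like the others. The count of window pairs was within 1.5 times of 3300 with plain scaling, a single distance trend, DESeq2 (3597), no count filter, the 4 ES libraries alone, the trend on primer pairs and without the dominant primer pair. With DESeq2, 5 distance classes rose and 15 fell, against 8 and 6.

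Over window pairs with the distance trends removed, deviations of same-numbered 2i and serum libraries correlated at 0.04. That value cannot show whether replicate numbers pair the libraries in their distance profile. Contacts under 50 kb held less in replicate 2 than in replicate 1 in both media. Their shares were 55.9% and 52.8% in 2i and 49.3% and 44.2% in serum. With the replicate number as a block, 4046 window pairs, 236 windows, 244 borders and 23 distance classes passed. Depth limits weak contacts: with window pairs in 4 equal groups by counts, 6.58% changed in the lowest and 36.0% in the highest. The direction went with counts too. In the lowest group 42 rose and 215 fell (median log2 -0.16), and in the highest 814 rose and 589 fell (median log2 0.07). What this means for the splits of rises and falls given above was not tested.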
